A study of Mus musculus with 4 samples.

Results

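Copying the genome needs a set of proteins that act in a fixed order, and 44 genes of that set were followed here in mouse primary hepatocytes with and without dynamin-related protein 1 (Drp1), the GTPase of mitochondrial fission that the gene Dnm1l encodes. The genes were chosen by name for their role in DNA replication and nucleotide supply, with earlier results of these data known. Each gene was found by its name in the annotation of the arrays, and all 44 had a probe well above background on all 4 arrays, out of 20615 gene names with such a probe on at least 1 array. They fall into 7 groups by role. The groups are licensing of origins (11 genes), helicase activation (6), polymerases and primase (7), the sliding clamp and its loader (6), single-strand binding and lagging-strand processing (5), nucleotide supply (5), and chromatin and histone supply (4).

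Hepatocytes came from C57BL/6 mice, which were male according to the methods of the study. Control animals, called wild-type or Drp1flox in the labels, carried floxed alleles of Dnm1l according to the methods, and the liver knockout (Drp1LiKO) carried floxed alleles of Dnm1l with a Cre transgene under the albumin promoter, so that the deletion was directed to hepatocytes. The age of these animals, and the number of animals behind each culture, were not given in the sources used here. The perfused cells were plated on collagen in medium with insulin and serum and were harvested 24 h after seeding, either untreated or with palmitate, a saturated fatty acid, at 200 μM for a time not given in those sources. Each of the 4 groups, control, Drp1LiKO, control with palmitate and Drp1LiKO with palmitate, was measured on 1 array, so the spread between animals or cultures is unknown and no test between 2 arrays was possible. The untreated arrays shared 1 slide and the palmitate arrays another, so palmitate and slide cannot be told apart, while each slide held both genotypes. The untreated control array is not unique to these samples, since its label gives the same raw data to a sample elsewhere.

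Licensing comes first in the cycle. The origin recognition complex, Cdc6 and Cdt1 load the ring-shaped Mcm2 to Mcm7 helicase onto DNA before S phase, and geminin later blocks Cdt1 so that no origin is licensed again. Cdc45 and the GINS complex then switch the helicase on, DNA polymerase α with primase lays down primers, and polymerases δ and ε extend them with the help of the clamp Pcna. Ribonucleotide reductase, thymidylate synthase and thymidine kinase supply the deoxynucleotides. In the adult liver hepatocytes are mostly quiescent, and these genes are known for their coordinate induction when hepatocytes enter the cell cycle after liver injury or in culture with growth factors.

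Between 44.7% and 51.1% of 56603 probes were well above background on the 4 arrays, and no spot was saturated. Values are log2 intensities after subtraction of the 75th percentile of the array, so 0 is that percentile and every change is relative to the bulk of transcripts on the same array. From probes printed repeatedly, the SD of a difference between 2 arrays that spot noise alone would give was 0.05 log2 units, which holds no spread between cultures. The deleted gene Dnm1l read 2.42 and 2.43 on the untreated and palmitate control arrays, and 1.07 and 1.01 on the matching Drp1LiKO arrays, so its level was lower on both arrays labelled Drp1LiKO. All 8 hepatocyte markers, Alb and Hnf4a among them, were well above background on all 4 arrays.

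All 44 genes were lower in Drp1LiKO than in control hepatocytes, both untreated and with palmitate, where 52.2% and 53.7% of all genes were lower. Under other settings 2 genes did not hold this direction in 1 condition, Pold1 with palmitate (0.00 after quantile normalization) and Pola2 untreated (0.58 with the mean of its probes). Untreated, their median log2 difference was −0.75, with a range from −1.78 to −0.09, against a median of −0.02 over 19875 genes. With palmitate the median was −0.69, with a range from −1.76 to −0.01, against −0.03 over 18890 genes. A gene was counted as changed when its level differed at least 2-fold, a log2 difference of 1. By that rule 14 of 44 genes fell untreated, where 5.58% of all genes fell. With palmitate 9 of 44 fell, where 4.26% of all genes fell, and 0 rose in either condition, where 8.84% and 7.26% of all genes rose. Normexp background correction left 8 falls untreated, where 2.37% of all genes then fell, and centring on array medians gave 16 with palmitate, where 5.28% then fell.

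The 9 genes that fell with palmitate were among the 14 that fell untreated. They are Rrm2, Cdc6, Mcm10, Orc1, Tk1, Cdc45, Pole, Pole2 and Rrm1, and a fall in both conditions was found in 1.98% of 18150 genes tested in both. The other 5, Uhrf1, Rfc5, Gins2, Rpa2 and Tyms, passed the rule untreated, and with palmitate their differences lay between −0.997 and −0.75. Just outside the rule untreated were Chaf1a at −0.99 and Mcm4 at −0.94, and just inside it was Rrm1 at −1.01. With normexp Cdc45 (−0.82), Rpa2 (−0.88), Pole2 (−0.93), Rrm1 (−0.96), Tyms (−0.98) and Gins2 (−0.99) did not reach 2-fold untreated, nor did Cdc45 (−0.83), Pole2 (−0.84) and Orc1 (−0.98) with palmitate. With the mean of the probes of a gene, Pole2 (−0.41), Rfc5 (−0.69), Pole (−0.79) and Tyms (−0.83) did not reach it untreated, nor did Pole2 (−0.35) with palmitate. Rrm1 read −0.998 untreated after quantile normalization. A lower level of any size in both conditions was seen for 44 of 44 genes and for 42.8% of those 18150 genes. In 43 of 44 genes both control arrays read higher than both Drp1LiKO arrays, as they did for 35.1% of 16611 genes well above background on all arrays. Gins3 was the exception, because its Drp1LiKO level with palmitate lay above its untreated control level.

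**Figure D1:**
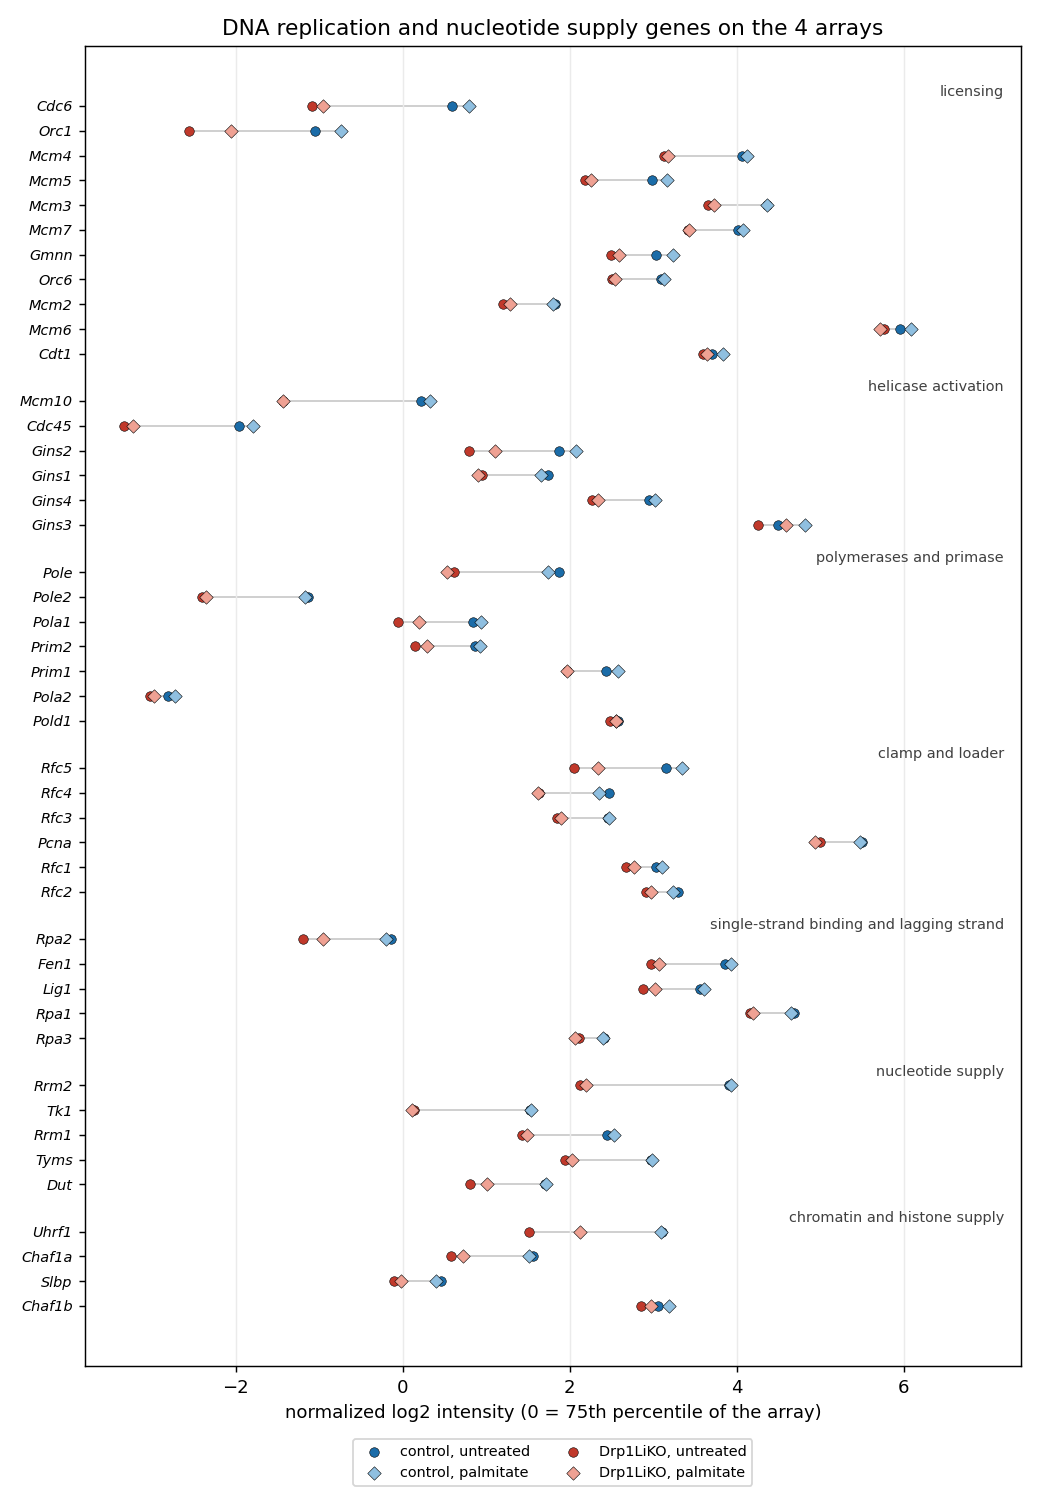
Normalized log2 intensity (horizontal axis, 0 is the 75th percentile of the array) of the 44 genes, grouped by role, with 1 point per array and a line spanning the 4 arrays of a gene. Blue points (control) lie to the right of red points (Drp1LiKO) for every gene but Gins3, the points of Pold1 lie closest together, and circles (untreated) and diamonds (palmitate) of a genotype lie close together.

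**Figure D2:**
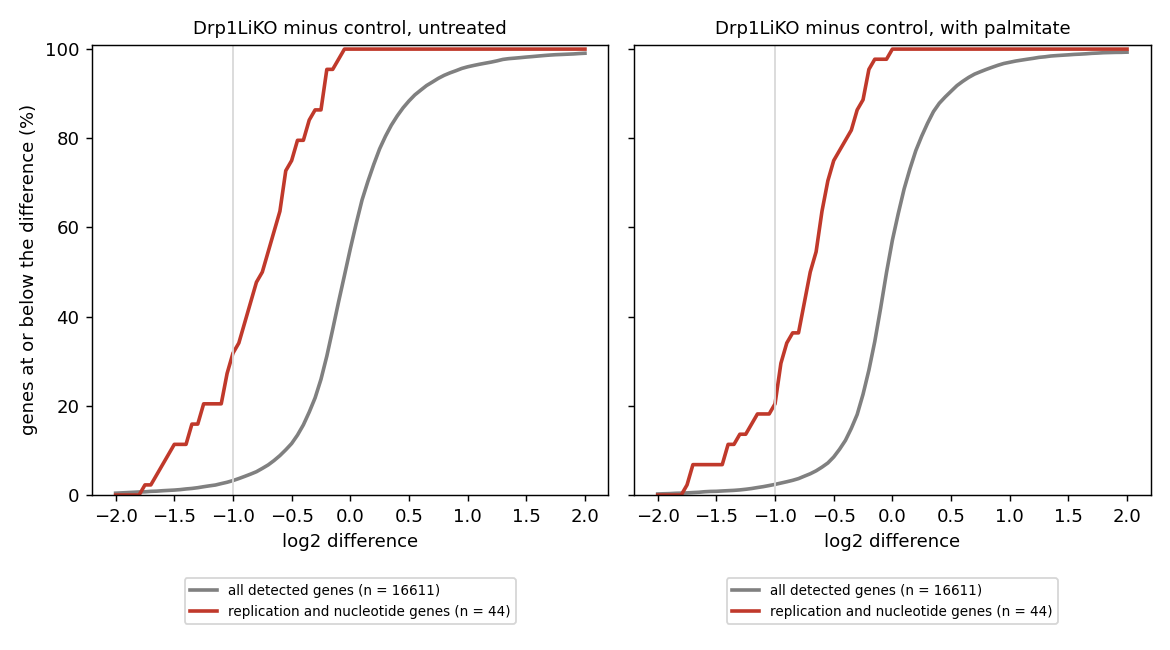
Cumulative share of genes (vertical axis, %) at or below each log2 difference of Drp1LiKO minus control, untreated (left) and with palmitate (right), for the 44 genes (red) and for 16611 genes well above background on all arrays (grey). Between −1.5 and 0 the red curve lies above the grey one in both panels, it reaches 100% by 0, and the vertical line marks a 2-fold fall.

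Macrophage, endothelial and stellate cell markers were higher in sum on the Drp1LiKO arrays, the direction opposite to that of the replication genes. Bile duct markers were lower in sum but mixed gene by gene. The summed linear level of 8 macrophage markers was 9.11 and 12.1 on the untreated and palmitate control arrays, and 33.7 on each Drp1LiKO array, in units of the 75th percentile, and 7 of 8 were at least 2-fold higher untreated. For 7 endothelial markers the sums were 0.80 and 0.62 in control and 3.33 and 1.89 in Drp1LiKO, and 6 of 7 were 2-fold higher untreated. For the 6 stellate cell markers measured they were 0.84 and 1.02 in control and 9.13 and 12.2 in Drp1LiKO, and 5 of 6 were 2-fold higher untreated, while Des did not exceed background clearly on any of the 4. A sum follows its brightest gene, and Dcn read 2.94 and 3.49 in Drp1LiKO, above the other stellate markers. With palmitate 6 of 7 macrophage, 5 of 6 endothelial and 4 of 5 stellate markers tested were 2-fold higher. Over all genes 8.84% were 2-fold higher untreated and 7.26% with palmitate. The remaining marker of each list was not well above background on either palmitate array. Well above background on the untreated and palmitate control arrays were 6 and 6 of 8 macrophage, 6 and 4 of 7 endothelial and 3 and 2 of 6 stellate markers. On the matching Drp1LiKO arrays the counts were 8 and 7, 7 and 6, and 6 and 5. For a marker detected on Drp1LiKO arrays alone the filter itself favours a higher reading there, so the 2-fold counts are no separate evidence. The 8 hepatocyte markers summed to 599 and 568 in control and to 688 and 667 in Drp1LiKO, a median difference per gene of 0.22 in each condition. Of these 8, 1 was lower in Drp1LiKO untreated and 3 were lower with palmitate. The part of these shifts in the lower replication genes was not tested, and in such bulk RNA fewer cells of a type and less RNA per cell cannot be told apart. Among lymphocyte markers Cd3g and Nkg7 had no probe well above background, and the 2 measured summed to 0.54 and 0.60 in control and 0.51 and 0.69 in Drp1LiKO. Epcam among the bile duct markers had none either, and the 3 other bile duct markers summed to 9.60 and 5.98 in control and 8.20 and 4.97 in Drp1LiKO. Of these 3, 1 was lower untreated (median difference 0.45) and 2 were lower with palmitate (median −0.40). Krt19, the brightest of the 3, differed by −0.37 and −0.40.

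Promoters were read because the 44 genes moved in 1 direction, and E2F transcription factors are known to control many S phase genes. The RefSeq windows (GRCm38.p6) cover 250 bases before and 50 bases after each annotated start, and 36 of 44 genes had an entry, with 41 windows in all. The words TTTCCCGC, TTTCGCGC, TTTGCCGC and TTTGGCGC, forms of the known E2F site, were searched on both strands. At least 1 of them was present for 14 of 36 genes (38.9%), and in 34.1% of their windows against 2.26% of 32851 windows genome-wide. Among 10013 genes with a window that were detected on all arrays, 4.30% had a match. The GC content of the windows was similar, with a median of 60.8% for the 36 genes and 60.0% for those detected genes.

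The 250 bases before the start are shown for 4 genes with a match, which span the largest and nearly the smallest differences of the licensing group, and for Rrm2, which had the largest difference of all untreated and no match. Capitals mark the matched words, and each sequence is written 5′ to 3′ in the direction of the gene.
Cdc6 (chr11:98907901-98908150, + strand): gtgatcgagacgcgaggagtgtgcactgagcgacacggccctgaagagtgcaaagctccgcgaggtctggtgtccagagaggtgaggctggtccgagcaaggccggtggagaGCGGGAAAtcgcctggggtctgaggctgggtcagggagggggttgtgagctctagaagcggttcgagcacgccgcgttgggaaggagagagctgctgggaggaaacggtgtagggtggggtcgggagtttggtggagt
Orc1 (chr4:108579204-108579453, + strand): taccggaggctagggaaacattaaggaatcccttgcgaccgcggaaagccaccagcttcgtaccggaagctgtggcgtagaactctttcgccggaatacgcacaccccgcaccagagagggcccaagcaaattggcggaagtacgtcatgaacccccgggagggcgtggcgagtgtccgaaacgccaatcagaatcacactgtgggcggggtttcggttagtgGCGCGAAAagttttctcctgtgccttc
Mcm5 (chr8:75109259-75109508, + strand): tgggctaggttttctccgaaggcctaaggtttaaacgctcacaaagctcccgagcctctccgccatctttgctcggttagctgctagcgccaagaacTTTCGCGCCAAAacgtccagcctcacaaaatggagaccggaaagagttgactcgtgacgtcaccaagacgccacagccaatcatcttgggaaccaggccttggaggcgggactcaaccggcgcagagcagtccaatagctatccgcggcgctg
Mcm6 (chr1:128359706-128359955, − strand): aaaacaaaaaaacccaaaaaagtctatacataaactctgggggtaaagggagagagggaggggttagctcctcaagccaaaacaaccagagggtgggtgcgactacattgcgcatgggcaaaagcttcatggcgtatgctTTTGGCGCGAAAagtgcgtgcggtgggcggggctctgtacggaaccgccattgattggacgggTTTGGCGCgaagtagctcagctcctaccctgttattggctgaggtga
Rrm2 (chr12:24708004-24708253, + strand): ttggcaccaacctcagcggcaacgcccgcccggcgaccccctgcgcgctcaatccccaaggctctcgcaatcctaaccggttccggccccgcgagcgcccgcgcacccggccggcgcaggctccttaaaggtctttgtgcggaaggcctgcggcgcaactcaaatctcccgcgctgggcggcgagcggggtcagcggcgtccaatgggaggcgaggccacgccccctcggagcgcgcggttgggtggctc

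In Mcm5 and in Mcm6 a pair of words on opposite strands overlap and appear as 1 capital run. Mcm6 has a further match nearer its start. The median difference of the 14 genes with a match was −0.69 untreated and −0.64 with palmitate, and that of the 22 genes without was −0.87 and −0.72. Over the detected genes the order was the other way, with medians of −0.13 and −0.12 for genes with a match and −0.03 and −0.04 for genes without. The genes with a match ranged from Cdc6 at −1.68 to Pold1 at −0.09 untreated. Rrm2, Mcm10, Tk1 and Cdc45, all past the 2-fold rule, held none of these letters in the window, which says nothing of sites elsewhere or of other letters.

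**Figure D3:**
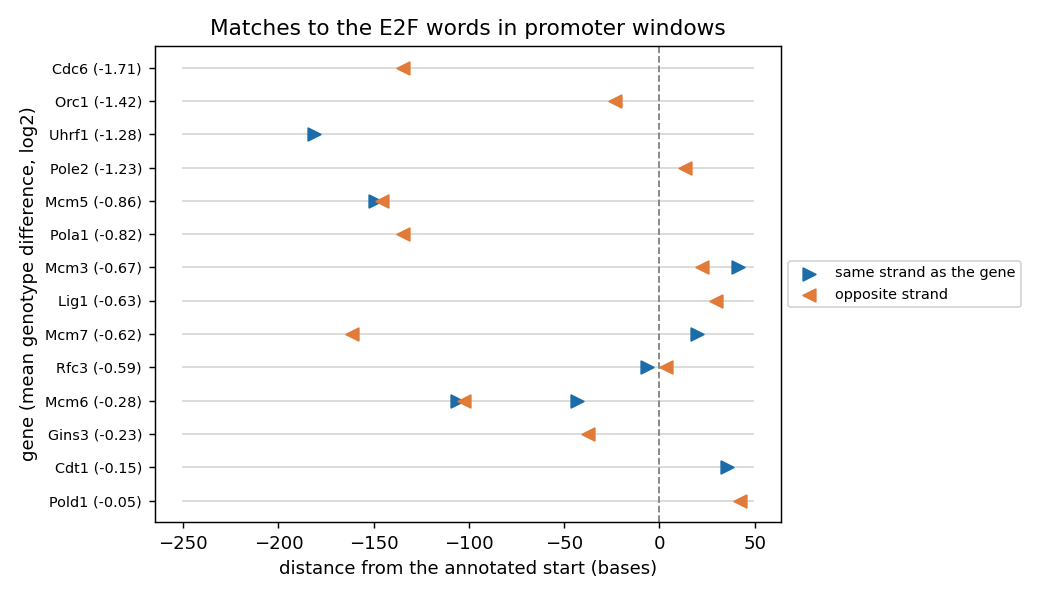
Positions of matches to the 4 E2F words in the promoter windows of the 14 genes that hold one (horizontal axis, bases from the annotated start), with genes ordered by the mean of their log2 differences in both conditions, given in parentheses. Matches lie on both sides of the start and on both strands, and genes with a match run from −1.71 (Cdc6) to −0.05 (Pold1).

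Among the 11 licensing genes Cdc6 and Orc1 fell. The group's median difference was −0.62 untreated and −0.64 with palmitate, and these 2 of 11 fell in each condition. Counts of each role group are to be read beside the share of all genes that fell, 5.58% untreated and 4.26% with palmitate. Cdc6, the ATPase that recruits the helicase to the origin recognition complex, read 0.59 and 0.79 on the untreated and palmitate control arrays, and −1.09 and −0.95 on the matching Drp1LiKO arrays. The control arrays were both far above the Drp1LiKO arrays, which made Cdc6 3.20-fold lower untreated and 3.33-fold lower with palmitate. Its probe lies at chr11:98782801-98782860 in mm9, the build of the array annotation, and 2.86% of all genes had a lower difference untreated. Orc1, the largest subunit of the origin recognition complex, read −1.04 and −0.73 in control and −2.56 and −2.05 in Drp1LiKO, which is 2.86-fold and 2.49-fold lower. Orc6, the smallest subunit, read 3.09 and 3.13 in control and 2.51 and 2.54 in Drp1LiKO, a difference of −0.59 in each condition that did not reach 2-fold.

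The 6 subunits of the Mcm2 to Mcm7 ring were all lower, none of them 2-fold. Mcm4 showed the largest difference, with 4.07 and 4.13 in control and 3.13 and 3.18 in Drp1LiKO, or −0.94 in both conditions. Mcm5 read 2.99 and 3.17 in control and 2.18 and 2.26 in Drp1LiKO, or −0.81 and −0.91. Mcm3, Mcm2 and Mcm7 lay between −0.71 and −0.52 in all comparisons. Mcm6 stood apart from the other subunits, with 5.96 and 6.09 in control and 5.76 and 5.72 in Drp1LiKO, or −0.20 and −0.37. The subunits form 1 ring in equal number, but their probes differed from one another in the size of the genotype difference. Cdt1, which brings the ring to the origin, read 3.71 and 3.84 in control and 3.60 and 3.64 in Drp1LiKO, one of the smallest differences at −0.11 and −0.19. Gmnn, the gene of its inhibitor geminin, read 3.04 and 3.24 in control and 2.49 and 2.59 in Drp1LiKO, or −0.55 and −0.65.

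Helicase activation had the second lowest group median, −0.93 untreated and −0.87 with palmitate, and 3 and 2 of its 6 genes fell. Mcm10, which is needed for the loaded helicase to unwind origins, read 0.22 and 0.32 in control and −1.43 on both Drp1LiKO arrays, making it 3.13-fold lower untreated and 3.38-fold lower with palmitate. Its probe lies at chr2:4911845-4911904 (mm9). Cdc45, a subunit of the active helicase, read −1.96 and −1.79 in control and −3.34 and −3.23 in Drp1LiKO, or 2.60-fold and 2.71-fold lower. With normexp background correction the differences of Cdc45 were −0.82 and −0.83. In the 75th-percentile values both genes kept the 2 genotypes apart by more than 1 log2 unit whichever arrays were compared.

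The GINS complex joins Cdc45 in the active helicase as a ring of Gins1, Gins2, Gins3 and Gins4 (also called Psf1, Psf2, Psf3 and Sld5). Gins2 read 1.87 and 2.08 in control and 0.80 and 1.10 in Drp1LiKO, or −1.07 and −0.98. Gins1 differed by −0.78 and −0.75, and Gins4 by −0.68 in both conditions. Gins3 had the smallest difference of the complex, with 4.49 and 4.82 in control and 4.26 and 4.59 in Drp1LiKO, a difference of −0.23 in each condition. For Gins3 the palmitate arrays read higher than the untreated arrays in both genotypes, by 0.33 each.

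Polymerase subunits were uneven. The 7 genes had medians of −0.72 untreated and −0.64 with palmitate, and 2 of 7 fell in each condition, both of them subunits of the leading-strand polymerase ε. These calls depended on the probe. Pole, its catalytic subunit, read 1.87 and 1.74 in control and 0.61 and 0.54 in Drp1LiKO, or 2.40-fold and 2.31-fold lower. A dimmer probe of Pole, well above background on all arrays, differed by −0.32 untreated and by −1.53 with palmitate, and the mean of the Pole probes was −0.79 and −1.37. Pole2, its second subunit, read −1.13 and −1.17 in control and −2.40 and −2.36 in Drp1LiKO, or 2.42-fold and 2.28-fold lower. A dimmer probe of Pole2, also detected on all arrays, read higher in Drp1LiKO by 0.45 and 0.50, and the mean of both was −0.41 and −0.35. In contrast Pold1, the catalytic subunit of polymerase δ, which copies the lagging strand, read 2.57 and 2.56 in control and 2.49 and 2.55 in Drp1LiKO. The differences of Pold1, −0.09 and −0.01, were the smallest of the 44, and the one with palmitate was within the spot noise of 0.05.

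Polymerase α and primase, which start each new strand, lay between these extremes. Pola1, the catalytic subunit, read 0.85 and 0.94 in control and −0.06 and 0.20 in Drp1LiKO, or −0.91 and −0.74. Its accessory subunit Pola2 read −2.81 and −2.72 in control and −3.02 and −2.97 in Drp1LiKO, or −0.21 and −0.25. The probes of Pola2 disagreed, as described below. The primase subunits Prim1 and Prim2 differed by −0.47 and −0.72 untreated and by −0.60 and −0.64 with palmitate.

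The clamp and its loader had the group median closest to 0, −0.56 in each condition, and 1 of 6 genes fell untreated and 0 with palmitate. Pcna, the ring that holds polymerases on DNA, read 5.50 and 5.48 in control and 5.00 and 4.94 in Drp1LiKO, or 1.41-fold and 1.45-fold lower. The loader is a complex of Rfc1 to Rfc5. Rfc5 read 3.15 and 3.34 in control and 2.06 and 2.34 in Drp1LiKO, or −1.09 and −0.997. Rfc4 differed by −0.84 and −0.73 and Rfc3 by −0.61 and −0.58. Rfc1, the large subunit, and Rfc2 differed least, between −0.38 and −0.26.

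Single-strand binding and lagging-strand genes had medians of −0.68 untreated and −0.58 with palmitate, and 1 of 5 fell untreated. The single-strand binding protein RPA is a trimer of Rpa1, Rpa2 and Rpa3. Rpa2 read −0.14 and −0.20 in control and −1.19 and −0.95 in Drp1LiKO, or −1.05 and −0.75. Rpa1 differed by −0.53 and −0.46 in its brightest probe, and by −1.33 and −1.09 in a dimmer one detected on all arrays, past 2-fold in both conditions. Rpa3 differed by −0.30 and −0.33. Fen1, the nuclease that trims Okazaki fragments, read 3.86 and 3.93 in control and 2.97 and 3.07 in Drp1LiKO, or −0.89 and −0.87. Lig1, the ligase that seals them, read 3.56 and 3.61 in control and 2.88 and 3.03 in Drp1LiKO, or −0.68 and −0.58. All 5 genes had both control arrays above both Drp1LiKO arrays.

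Nucleotide supply had the lowest group median in both conditions, −1.03 untreated and −1.05 with palmitate, and 4 and 3 of its 5 genes fell. Rrm2, the S phase subunit of ribonucleotide reductase, read 3.91 and 3.93 on the untreated and palmitate control arrays and 2.13 and 2.20 on the Drp1LiKO arrays. The fall of Rrm2, 3.44-fold untreated and 3.34-fold with palmitate, was the largest of the 44 genes untreated, and 2.63% of all genes had a lower difference. Its probe lies at chr12:25398824-25398883 (mm9). Rrm1, the catalytic subunit of the same enzyme, read 2.45 and 2.54 in control and 1.43 and 1.49 in Drp1LiKO, or 2.02-fold and 2.07-fold lower. Rrm2b, the alternative small subunit outside the S phase programme, differed the other way, with −3.09 and −3.21 in control and −2.99 and −3.01 in Drp1LiKO, a difference of 0.10 and 0.20 that is under 2-fold.

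The thymidylate enzymes were lower as well. Tk1, the cytosolic thymidine kinase of the salvage route, read 1.52 and 1.54 in control and 0.14 and 0.11 in Drp1LiKO, or 2.61-fold and 2.70-fold lower. Tyms, thymidylate synthase of the de novo route, read 2.98 and 2.99 in control and 1.95 and 2.03 in Drp1LiKO, or 2.04-fold and 1.95-fold lower. Dut, which removes dUTP and yields the substrate of Tyms, read 1.70 and 1.72 in control and 0.81 and 1.01 in Drp1LiKO, or −0.89 and −0.71. The control arrays of all 5 genes of the group differed from each other by at most 0.09 log2 units.

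Of the chromatin and histone supply genes 1 of 4 fell untreated and 0 with palmitate, with medians of −0.78 and −0.60. Uhrf1, which brings the maintenance methyltransferase to newly copied DNA, read 3.11 and 3.10 in control. In Drp1LiKO it read 1.52 untreated and 2.13 with palmitate, so it was 3.02-fold lower untreated and 1.96-fold lower with palmitate. Its probe lies at chr17:56462770-56462829 (mm9). A dimmer probe of Uhrf1, well above background on 3 of the 4 arrays, differed by −0.60 untreated and −1.63 with palmitate. The exception was the Drp1LiKO palmitate array, where it read −4.91, so its difference with palmitate rests on an undetected value. Chaf1a, the large subunit of the chromatin assembly factor that deposits histones behind the fork, read 1.56 and 1.51 in control and 0.58 and 0.72 in Drp1LiKO, or −0.99 and −0.79. Its partner Chaf1b differed by −0.21 in both conditions, and Slbp, which binds the stem-loop of replication-dependent histone mRNAs, differed by −0.57 and −0.42.

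The 2 genotype comparisons share no array, and the sizes of the differences were alike gene by gene. Since the number of animals behind each culture was not given, both comparisons may rest on the same preparations of cells. Over these 44 genes, each read on the same 4 arrays and none a replicate, Pearson's r between the untreated and palmitate differences was 0.956 and Spearman's rho 0.964, given as a description of these arrays. The difference of a gene changed between conditions by a median of 0.08 log2 units. It changed by more than 0.2 for 2 of 44 genes, against 35.2% of 16611 genes detected on all arrays. These were Uhrf1 (0.62) and Rpa2 (0.30), whose brightest probes read higher with palmitate in Drp1LiKO, while the dimmer Uhrf1 probe changed by −1.03. That last change rests on the Drp1LiKO palmitate array, where the dimmer probe was not well above background.

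**Figure D4:**
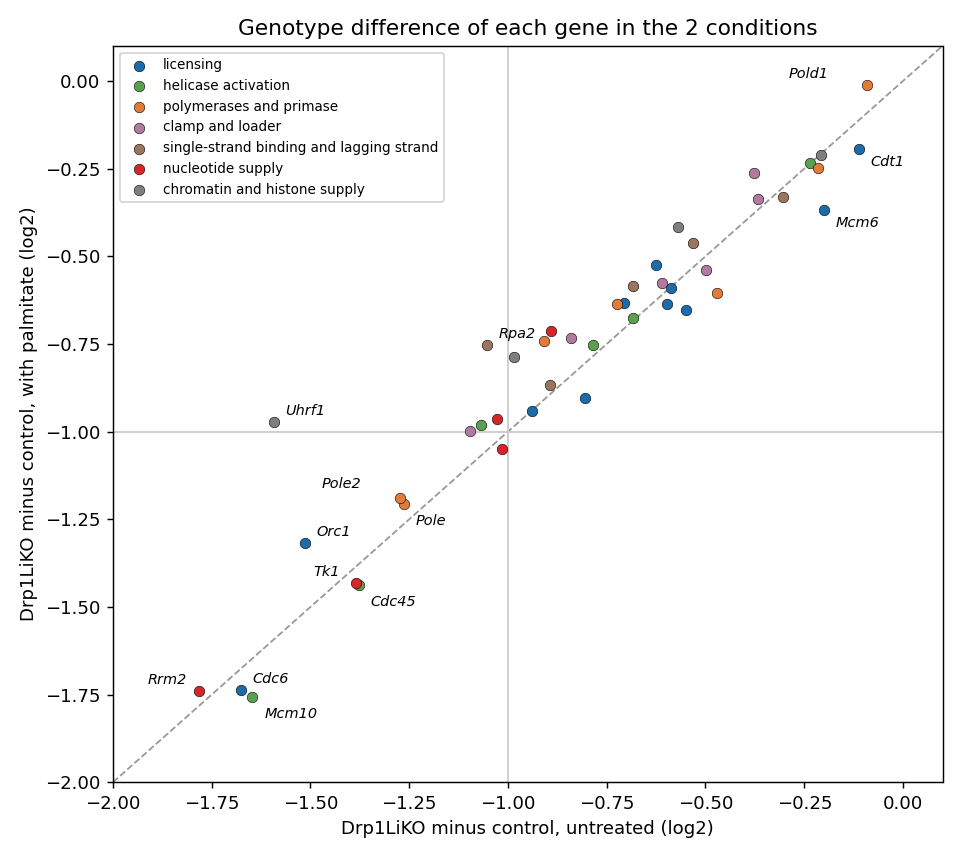
Log2 difference of Drp1LiKO minus control for each of the 44 genes, untreated (horizontal axis) and with palmitate (vertical axis), coloured by role, with 1 point per gene. Points lie along the dashed line of equal differences, Uhrf1 lies farthest above it, and the grey lines mark a 2-fold fall.

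Responses of the 44 genes to palmitate were small in both genotypes. In control the median response, palmitate minus untreated, was 0.05, or −0.0047 with arrays centred on their medians, and the range was −0.13 to 0.33. Of the 44 genes 30 were higher and 14 lower (23 lower with median centring), where 51.6% of all genes were higher. In Drp1LiKO the median was 0.08, with a range from −0.07 to 0.61, and 36 were higher and 8 lower, where 50.7% were higher. By the 2-fold rule 0 of 44 changed in either genotype, where 5.70% of 18772 genes changed in control and 7.04% of 19747 in Drp1LiKO. Both responses were under 0.2 in size for 36 of 44 genes, against 48.5% of genes detected on all arrays. In both genotypes 27 genes read higher with palmitate, against 36.1% of all genes detected on all arrays. The responses in control and in Drp1LiKO differed by 2-fold or more for 0 of 44 genes, where 10.8% of 20615 genes did.

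A few genes had larger responses, none of which reached 2-fold. Orc1 read 0.31 higher in control and 0.51 higher in Drp1LiKO, Gins3 by 0.33 in both, and Gins2 by 0.21 and 0.30. Rfc5 was higher by 0.19 and 0.29. The brightest probe of Uhrf1 responded by −0.01 in control and 0.61 in Drp1LiKO, and the dimmer one by −0.03 and −1.07, so the probes disagreed on the direction in Drp1LiKO. Because palmitate and slide cannot be told apart, these values hold any difference between the slides too.

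**Figure D5:**
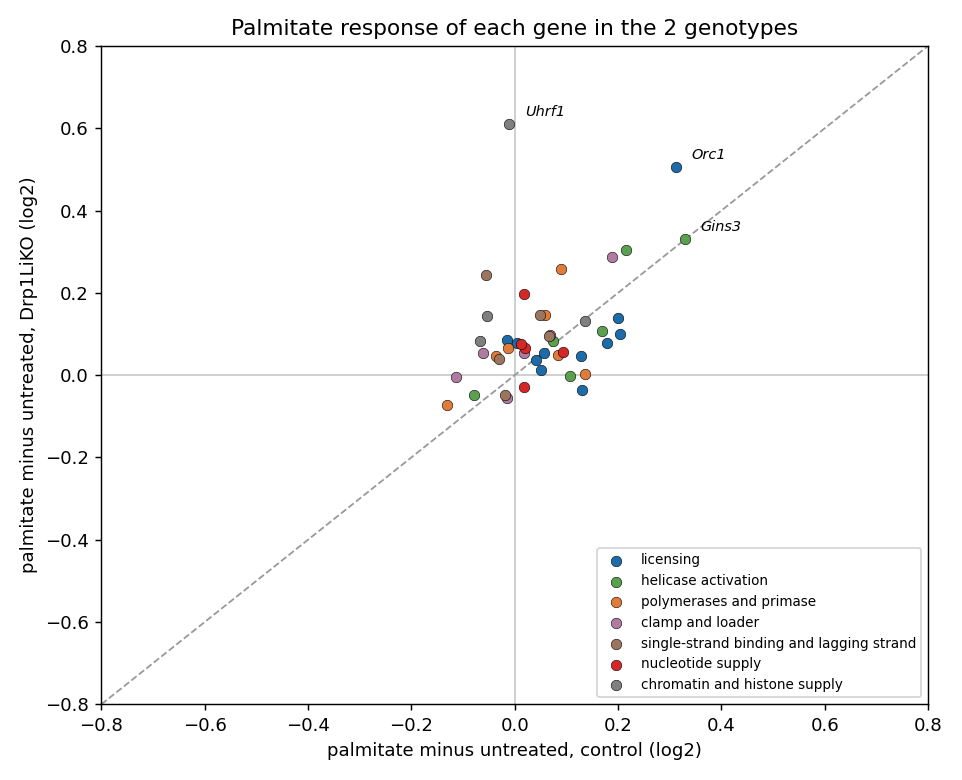
Log2 response to palmitate, palmitate minus untreated, of each of the 44 genes in control (horizontal axis) and in Drp1LiKO (vertical axis), coloured by role. Most points lie within 0.2 of the origin, and Uhrf1 (−0.01 in control, 0.61 in Drp1LiKO) and Orc1 (0.31 and 0.51) lie farthest from it.

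A model over all 4 arrays with genotype and palmitate as additive terms was fitted with limma across 20615 genes. Only 1 degree of freedom remains for the error, and any interaction of the terms is counted in it. That error is the change of the genotype difference between the conditions, since no group has a second array. The SE and p-values of these fits therefore do not measure the spread between animals or cultures of a group. At an adjusted p under 0.05 by limma with Benjamini-Hochberg adjustment it called 0 genes for genotype, 0% of all and 0 of 44 here, with a smallest adjusted p of 0.119. At an unadjusted p under 0.05 it had 38 of 44 genes for genotype, all lower, against 26.0% of all genes. For Rrm2 the genotype effect was −1.76 with an SE of 0.07 (limma adjusted p = 0.119), and for Cdc6 it was −1.71 with an SE of 0.07 (limma adjusted p = 0.119). Pold1 had an effect of −0.05 with an SE of 0.07 (limma adjusted p = 0.677).

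The number of genes that limma called depended on the setting. With a prior spread that follows intensity, limma called 40 of 44 genes for genotype, all lower, where it called 26.0% of all genes. Limited to genes detected on all 4 arrays limma called 35 of 44, where it called 15.6% of genes, and with normexp background correction 29 of 44, where it called 7.38%. After quantile normalization limma called 0 of 44 and 0% of all genes, with 38 of 44 at an unadjusted p under 0.05 against 25.9% of all genes. For palmitate, limma called 0 of 44 genes in each of these fits, where the intensity trend called 0.902% of all genes and the others 0%. In the first fit 2 of 44 had an unadjusted p under 0.05 for palmitate, against 9.68% of all genes.

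Other probes for the same genes mostly pointed the same way. The arrays carried 87 probes for the 44 genes, and 16 genes had a single probe. Of 43 further probes, 30 were well above background on all arrays, for 22 genes. Of these 30, 27 were lower in Drp1LiKO untreated and 28 with palmitate, with medians of −0.69 and −0.70. The exceptions were probes of 3 genes. A pair of probes of Pola2 read higher in Drp1LiKO untreated, by 0.18 and 1.77, and differed by −0.26 and −0.69 with palmitate. The others were the dimmer Pole2 probe described above and another probe of Rfc5, which differed by −0.07 and 0.04.

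Other genes of the same pathways, 88 by name, were read beside the 44, and 87 had a probe well above background. Untreated, 71 of 87 were lower in Drp1LiKO, 12 fell 2-fold and 1 rose, with a median of −0.40. Over all genes 52.2% were lower untreated, 5.58% fell 2-fold and 8.84% rose. With palmitate 74 of 87 were lower, 13 fell and 1 rose, with a median of −0.36, where 53.7% of all genes were lower, 4.26% fell and 7.26% rose. The counts of each list below are to be read beside these shares. Up to 3 genes with the largest mean genotype difference in each list are named here, among genes detected on all arrays. In origin firing and fork protection 2 of 18 fell untreated and 3 with palmitate, Ticrr by 1.59 and 1.71 on the log2 scale, and Recql4 differed by −0.90 and −1.12 and Cdc7 by −0.95 and −0.85. Clspn, well above background on the control arrays alone, was the other that passed the rule untreated.

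Among other polymerase and fork subunits 4 of 18 fell in each condition, among them Top2a (−1.82 and −1.61), Dscc1 (−1.19 and −1.40) and Chtf18 (−1.16 and −1.19), the topoisomerase that separates copied chromosomes and members of an alternative clamp loader. Chtf8, of the same loader, was the 1 gene that rose untreated (1.29), and it differed by −0.29 with palmitate. Repair and bypass polymerases had medians close to 0, −0.15 and −0.16, with Polq (−1.66 and −1.71) as the 1 of 9 that fell. Polb, the polymerase of base excision repair, differed by 0.42 and 0.40 and Polk by −0.33 and −0.36.

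Other nucleotide enzymes also had medians near 0, −0.16 and −0.15, and 2 of 21 fell in each condition. Dck, the deoxycytidine kinase, was among them (−1.26 and −1.21). Gart, of purine synthesis, differed by 0.96 untreated and rose by 1.10 with palmitate. Samhd1, which degrades deoxynucleotides, differed by 0.31 and 0.38. Chromatin assembly genes had medians of −0.39 and −0.48, with none of 6 past 2-fold, and Asf1b (−0.99 and −0.87), Hells (−0.91 and −0.59) and Nasp (−0.43 and −0.48) differed most.

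In the list of E2F and S phase control 3 of 15 fell in each condition, with medians of −0.56 and −0.58, and Ccne2 had no probe well above background. The 3 were E2f7 (−2.71 and −2.65) and E2f8 (−1.85 and −1.70), which encode atypical repressors of the E2F family, and Ccna2 (−2.40 and −2.12), the cyclin of S phase and G2. E2f7 read −0.50 and −0.58 in control and −3.21 and −3.23 in Drp1LiKO, a gap larger than that of any of the 44 genes. Mki67, a marker of cycling cells, read 2.08 and 2.06 in control and −0.09 and 0.09 in Drp1LiKO, or −2.17 and −1.97. Gapdh, read for comparison, differed by −0.08 and −0.11.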

How the data were processed

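Gene expression in 4 cultures of mouse primary hepatocytes was measured with 1-colour (Cy3) oligonucleotide arrays of 62976 spots, 1 array a group, grouped by the sample labels. The authors deposited scanner tables of intensity values on a linear scale, written per the file headers by Feature Extraction 10.7.1.1 (9.5.1.1 in the submitters' processing notes), which subtracts background within an array and scales nothing between arrays. A second deposited table gives processed intensity values, and its columns held the same sorted values to within 0.0686%. It served as an alternative, and how it was made was not given in the sources used here. Labels and methods name different RNA kits.

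The log2 of the processed signal minus the 75th percentile of each array was used. Control spots and spots with outlier marks were left out, and spots of a probe were averaged. A gene was its brightest probe by mean, taken from those that exceeded background by the scanner's flag (well above background) on 1 array or more. A change was a log2 difference of at least 1 with the probe well above background on at least 1 of the arrays compared. Tests from limma 3.58.1 (R 4.3.3) with eBayes and Benjamini-Hochberg adjustment (two-sided) were made for genotype and palmitate over 20615 genes, and the script was tested on simulated data. Python 3.11.15, pandas 2.3.3 and numpy 2.4.6 did the rest. The 44 genes and all lists were chosen with earlier results of these data known. All 44 are named, with the 3 genes of each other pathway list that had the largest mean genotype difference and were detected on all arrays, and Dnm1l, Gapdh, Rrm2b, Samhd1 and Mki67, except 1 gene that is not reported here. Marker lists are given by their sums, with Alb and Hnf4a named as examples. Clspn, Chtf8, Ccne2, Dcn, Krt19 and the markers not detected were named after their values were seen. Alternatives were median scaling, quantile normalization, the deposited table, normexp with an offset of 50, other filters on dim probes, the mean of all probes, a floor, and other limma settings. Promoter sequences are from RefSeq (GRCm38.p6). Probe positions are those of the array annotation (mm9), and whether a probe lies in a coding exon or a UTR was not analysed here. With 1 array a group, precision is limited by the number of arrays.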

Additional observations from a re-analysis of the deposited data

How the results depend on the processing

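The median genotype difference of the 44 genes stayed below 0 under each alternative run, in both conditions. Of 704 single-gene values of the genotype differences under them 701 were below 0, and the other 3 were Pola2 untreated with the mean of all probes (0.58) and Pold1 with palmitate after quantile normalization and in the deposited table (0.00 in both, on the log2 scale). These values are not separate checks. The other filters on dim probes and the floor returned the main medians, −0.75 and −0.69, because the 44 probes passed the flag on every array. Quantile normalization and the deposited table gave nearly the same median untreated, −0.74 in both. Centring on the array median in place of the 75th percentile moved the median of all genes by −0.18 untreated and −0.16 with palmitate. It gave medians over the 44 genes of −0.94 untreated and −0.85 with palmitate, and 16 genes 2-fold lower with palmitate in place of 9, while the share of all genes 2-fold lower moved from 4.26% to 5.28%. Normexp background correction left 8 genes 2-fold lower untreated in place of 14, and 2.37% of all genes in place of 5.58%. The sign of the small palmitate response was less stable. Under median scaling the median in control was −0.0047 with 23 genes lower in place of 14, and with the mean of all probes 13 genes were lower in Drp1LiKO in place of 8. For limma's genotype term, 5353 of 20615 genes and 40 of 44 were called with an intensity trend, 2587 of 16611 and 35 of 44 over genes detected on all arrays, and 1521 and 29 with normexp, against 0 and 0. For palmitate the trend gave 186 genes against 0. The cause of these shifts was not tested. No replicate could be left out with 1 array a group. No paired analysis was possible because the samples carry no replicate numbers, other than by slide, where the palmitate term of the limma model already pairs the genotypes. Signal over background limits dim probes most, and the 44 probes passed that flag on every array.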

Other observations

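The promoter windows of the 44 genes were also searched for the letters CCAAT, bound by NF-Y, and TTTGAA, the core of the cell cycle genes homology region, on both strands. CCAAT was present for 23 of 36 genes with a window, 63.9%, against 42.3% of genes detected on all arrays. Untreated, the median difference of Drp1LiKO minus control was −0.62 for the 23 genes and −0.89 for the others. TTTGAA was present for 4 of 36, 11.1%, against 14.7% of detected genes. No test was made of these shares.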
